A study of Mus musculus with 6 samples.

Results

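The genes described here encode the proteins of the cytosolic ribosome. They were chosen by name: every row of the deposited gene table whose symbol follows the Rpl, Rps or Rplp pattern, plus Rpsa and Fau, without rows named as pseudogenes and without the ribosomal S6 kinases. The rule uses no measured value. It found 88 genes among the 28476 of the table, 52 of the large subunit and 36 of the small subunit, on 20 chromosomes. Rpl10l and Rpl39l are not analysed here. Levels are in FPKM, fragments scaled by transcript length and library total, a unit per length, so levels of different genes can be set side by side.

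RNA came from whole livers of C57BL/6 mice that had been fasted overnight, were given 300 mg/kg acetaminophen (APAP) into the peritoneum, and were sampled 24 h later. All 6 libraries share that fast, dose and time. The 3 Flox libraries come from mice labelled Flox, and the 3 HepKO libraries from mice with the genotype label Nedd4 HepKO. Acetaminophen overdose injures hepatocytes, and the series title places the ubiquitin ligase NEDD4-1 and its target VDAC1 in that injury. Age, sex and the Cre driver are not in the labels, and livers without acetaminophen are not analysed here. Nothing in the labels ties a library to 1 animal, and the p-values cover only the spread between libraries, which may be technical. In whole liver, fewer cells of a type and less RNA per cell cannot be told apart.

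The ribosome reads messenger RNA in the cytosol and joins amino acids into protein. Its small subunit binds the message and decodes it, and its large subunit holds the peptidyl transferase centre, the exit tunnel of the new chain and a flexible stalk that calls in elongation factors. The subunits are assembled in the nucleolus, with each protein used in equal number except the stalk proteins. Messages for these proteins carry a 5′ terminal oligopyrimidine tract (a TOP element), a C at the start site followed by a run of C and T, through which mTOR signalling controls their translation together. The liver, a major producer of secreted protein, holds large amounts of these messages.

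The start windows below are shown because this tract is the sequence feature known for these messages and the naming rule did not use it. They are RefSeq promoter sequence on GRCm38.p6, 10 bases before the annotated start and 20 from it, read on the strand of the gene, and capitals mark the longest run of C and T that begins with C within 5 bases of the start. Rps6, Fau, Rpl15, Rpl35 and Rps10 are shown as examples of runs of 10 to 17 bases. They do not hold the longest run, which in Rpl27a, not shown, was 20 bases. Rps27 with its paralog Rps27l, Rps24 and Rpsa are shown for the results that follow. In Rpsa no run of at least 5 bases was found.
Rps6, chr4:86857348-86857377, minus strand: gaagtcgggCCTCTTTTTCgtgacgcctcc
Fau, chr19:6057937-6057966, plus strand: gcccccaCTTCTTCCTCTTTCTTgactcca
Rpl15, chr14:18270967-18270996, minus strand: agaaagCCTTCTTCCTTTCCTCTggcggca
Rpl35, chr2:39005112-39005141, minus strand: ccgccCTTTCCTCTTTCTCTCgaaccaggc
Rps10, chr17:27635225-27635254, minus strand: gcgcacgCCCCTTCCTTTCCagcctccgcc
Rps27, chr3:90213629-90213658, minus strand: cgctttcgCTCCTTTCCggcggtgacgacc
Rps27l, chr9:66946076-66946105, plus strand: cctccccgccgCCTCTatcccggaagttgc
Rps24, chr14:24490668-24490697, plus strand: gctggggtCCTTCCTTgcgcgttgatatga
Rpsa, chr9:120127756-120127785, plus strand: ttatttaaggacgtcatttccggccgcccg

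A RefSeq window was found for 64 of the 88 genes. The pattern searched, on the strand of the gene only, was C at the annotated start followed by C or T for a run of at least 5 bases. It was present in 15 of the 64 genes (23.4%), 8 of 39 of the large subunit and 7 of 25 of the small subunit, against 3.12% of the 8903 tested genes with a window. With the run allowed to begin within 5 bases of the annotated start, 31 of the 64 genes (48.4%) held it, against 24.1% of the tested genes. An annotated start can lie some bases from the start used in liver, so these shares describe the annotation. In Fau the run begins upstream of the annotated start and is 16 bases long, in Rps27 it is 9 bases long, and the windows of Rps27l and Rpsa have no run of at least 5 bases starting at the annotated base.

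Several other features set these genes apart from the rest of the table. Their transcripts were short, with a median length of 707.5 bases over the 82 genes with a coding transcript in GENCODE M21, against 2605 bases for tested genes. Introns of ribosomal protein genes often carry small nucleolar RNAs, guides for the modification of ribosomal RNA. Such RNAs lay inside 28 of the 88 genes (31.8%), 55 in all, against 2.36% of the tested genes. In the genotype comparison the snoRNA hosts had a median log2 fold change of 0.10 and the other members of 0.06.

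The genes were abundant and their levels spread widely. Averaged over the 6 libraries, 52 of the 88 had at least 100 FPKM, 32 had 10 to 100 FPKM and 4 were under 10 FPKM. Rplp1, a stalk protein, was the most abundant of the large subunit at 740 FPKM, ahead of Rplp0, the base of the stalk, at 392 FPKM. Rpl36 (362 FPKM), Rpl4 (357 FPKM) and Rpl8 (310 FPKM) followed, and these last 3 did not overlap Rplp1 in any library. In the small subunit the most abundant were Rps3a1 at 501 FPKM, Rps15 at 413 FPKM and Rps6 at 408 FPKM, with Rps2 lower at 275 FPKM. In Flox, Rps15 (381, 382 and 418 FPKM) lay above Rps6 (378, 341 and 364 FPKM) without overlap. In each HepKO library Rps6 was the higher, at 427, 472 and 467 FPKM against 386, 462 and 450 FPKM for Rps15. The low end was made up of Rpl32l (1.66 FPKM), Rps3a3 (3.81 FPKM), Rps3a2 (5.67 FPKM) and Rpl3l, the Rpl3 paralog of striated muscle, at 0.176 FPKM. Rpl3l fell under the minimum for testing, a mean of 0.5 FPKM, and 87 genes were tested. The order of the genes was nearly the same in both genotypes (Spearman rho 0.98 across the 87 genes, which share the 6 libraries and are not independent replicates).

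The group as a whole took 2.73%, 2.52% and 2.72% of all FPKM in the Flox livers and 2.22%, 2.89% and 3.11% in the HepKO livers. The lowest and the highest share were both in HepKO livers, so the genotypes overlapped. Large subunit genes summed to 7068, 6619 and 7245 FPKM in Flox and to 6455, 8067 and 8060 FPKM in HepKO. Small subunit genes summed to 5398, 4958 and 5332 FPKM in Flox and to 4581, 5841 and 6196 FPKM in HepKO. For both subunits HepKO replicate 1 was below every Flox library and HepKO replicates 2 and 3 were above every Flox library. The ratio of the large to the small sum was 1.309, 1.335 and 1.359 in Flox (1.33 ± 0.02, SD, n = 3) and 1.409, 1.381 and 1.301 in HepKO (1.36 ± 0.06, SD, n = 3), with the groups overlapping.

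**Figure D1:**
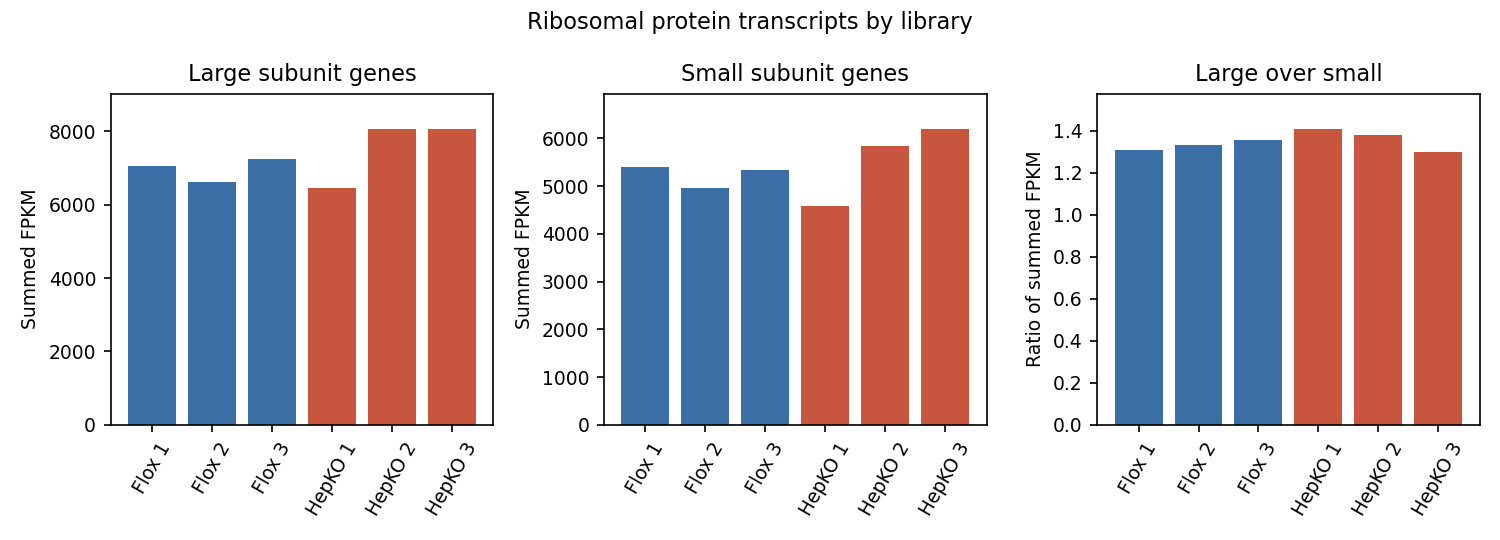
Summed FPKM of the 52 large subunit genes (left) and the 36 small subunit genes (middle), and the ratio of those sums (right), as 1 bar per library, with Flox in blue and HepKO in red. HepKO 1 is the lowest bar of both sums (6455 and 4581 FPKM), while the ratio stays between 1.301 and 1.409 in all 6 libraries.

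HepKO replicate 1 also stood apart in other measures, which touches every result below. Genes of the mitochondrial genome took 24.6% of its FPKM, against 16.7% to 18.3% in the other 5 libraries. Leaving those genes out of the total, ribosomal protein genes took 2.95% of its FPKM, still under the 3.08% to 3.28% of the Flox livers, and 3.54% and 3.76% in the other HepKO livers. The targeted gene, Nedd4, was low in all HepKO libraries, with 2.18, 2.59 and 2.23 FPKM in Flox and 0.618, 0.666 and 0.565 FPKM in HepKO, with no overlap (log2 fold change -1.04, limma adjusted p = 0.0015). Markers of neutrophils, 8 of 8 tested, were called higher in HepKO, with sums of 135 to 160 FPKM against 10.5 to 20.3 FPKM in Flox, and 4 of 5 tested erythroid markers were called higher (551 to 974 FPKM against 132 to 234 FPKM). Of 10 hepatocyte markers 2 were called lower, none higher, and their sums overlapped (39657 to 44071 FPKM in HepKO and 37013 to 43431 FPKM in Flox). Most of that sum was Alb, with means of 25956 FPKM in Flox and 26922 FPKM in HepKO. The median log2 fold change of the 10 was -0.33. Without overlap, 5 of them lay lower in HepKO and 1 higher, against 25.2% and 17.2% of all tested genes. For monocytes and macrophages 4 of 8 were called higher and 1 lower, for Kupffer cells 1 of 9 higher, for endothelium 3 of 7 higher and 1 lower, for stellate cells 1 of 7 higher, and for lymphocytes the 1 tested marker higher. The B cell marker Ms4a1 was listed at 0 in every library, and the 6 markers of dividing cells were too low to test (sums of 0.543 to 0.635 FPKM in Flox and 0.211 to 0.345 FPKM in HepKO). The part of these cell types in the ribosomal protein values was not tested.

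Of the 87 tested ribosomal protein genes, 1 was called higher in HepKO and 0 were called lower, by limma on log2(FPKM + 1) with Benjamini-Hochberg adjustment over all 12712 tested genes and a threshold of 0.05. The background was far higher: 20.3% of all tested genes were called, 9.33% of them higher and 11.0% lower, against 1.15% of the ribosomal protein genes. At an unadjusted p under 0.05 there were 8 ribosomal protein genes (9.20%), all 8 on the higher side and 0 on the lower, against 35.7% of all tested genes. The authors' deposited table likewise gives a q-value under 0.05 for 1 of the 88 genes, against 8.97% of all 28476 genes. The intervals were about as wide as elsewhere, reaching a median of 0.35 to either side on the log2 scale for these genes and 0.33 for all tested genes. For 42 of the 87 genes the 95% interval of the log2 fold change lay within 0.5 either way, and for 82 within 1 either way.

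The gene that passed was Rps24, which encodes a small subunit protein needed for maturation of the 18S ribosomal RNA and is known for its mutations in Diamond-Blackfan anaemia. The 3 Flox libraries had 28.4, 27.9 and 31.1 FPKM, and the 3 HepKO libraries had 40.002, 42.7 and 35.5 FPKM. Every HepKO library lay above every Flox library, and HepKO replicate 1 was not the low one. The means were 29.1 ± 1.75 and 39.4 ± 3.66 FPKM (SD, n = 3), a 1.35-fold difference, with a log2 fold change of 0.42 (SE 0.11, 95% interval 0.16 to 0.68, limma adjusted p = 0.038). The authors' deposited table gives it a p-value of 0.00711 and a q-value of 0.0406. The call was close to the threshold. It was lost with no filter on low genes (adjusted p = 0.056) and with all libraries set to a common sum (0.061), and when Flox replicate 1, 2 or 3 or HepKO replicate 1 or 2 was left out (limma adjusted p 0.084, 0.118, 0.073, 0.085 and 0.129). Rps24 (ENSMUSG00000025290) spans 24487125 to 24495858 of chromosome 14 in the deposited table, an interval that differs from that of GENCODE M21 on GRCm38.

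The other 7 genes with an unadjusted p under 0.05, Rps6, Rps12, Rpsa, Rpl6l, Rpl35, Rpl21 and Rps26, missed the adjusted threshold, and in each every HepKO library lay above every Flox library. All but Rps6 and Rpsa were named after their values were seen. Rps6, the substrate of the S6 kinases, had 378, 341 and 364 FPKM in Flox and 427, 472 and 467 FPKM in HepKO (log2 fold change 0.33, limma adjusted p = 0.054). Rpsa, also known as the laminin receptor, had 213, 196 and 200 FPKM in Flox and 242, 260 and 244 FPKM in HepKO (0.29, adjusted p = 0.067). Both groups of libraries were tight and did not overlap for these genes. Rps12, a protein of the beak of the small subunit, had 58.3, 55.6 and 63.8 FPKM in Flox and 69.2, 82.4 and 80.8 FPKM in HepKO (0.38, adjusted p = 0.057). With its pseudogene rows added, which hold more FPKM than the gene, Rps12 was at 0.15 (adjusted p = 0.61). Rpl35, which sits at the exit of the tunnel, had 171, 167 and 182 FPKM in Flox and 214, 226 and 195 FPKM in HepKO (0.28, adjusted p = 0.094). With the libraries rescaled by median ratios Rps6, Rpsa and Rps12 passed beside Rps24 (adjusted p 0.028, 0.045 and 0.020), so 4 genes were called in place of 1. In that setting 20.8% of all tested genes were called.

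**Figure D2:**
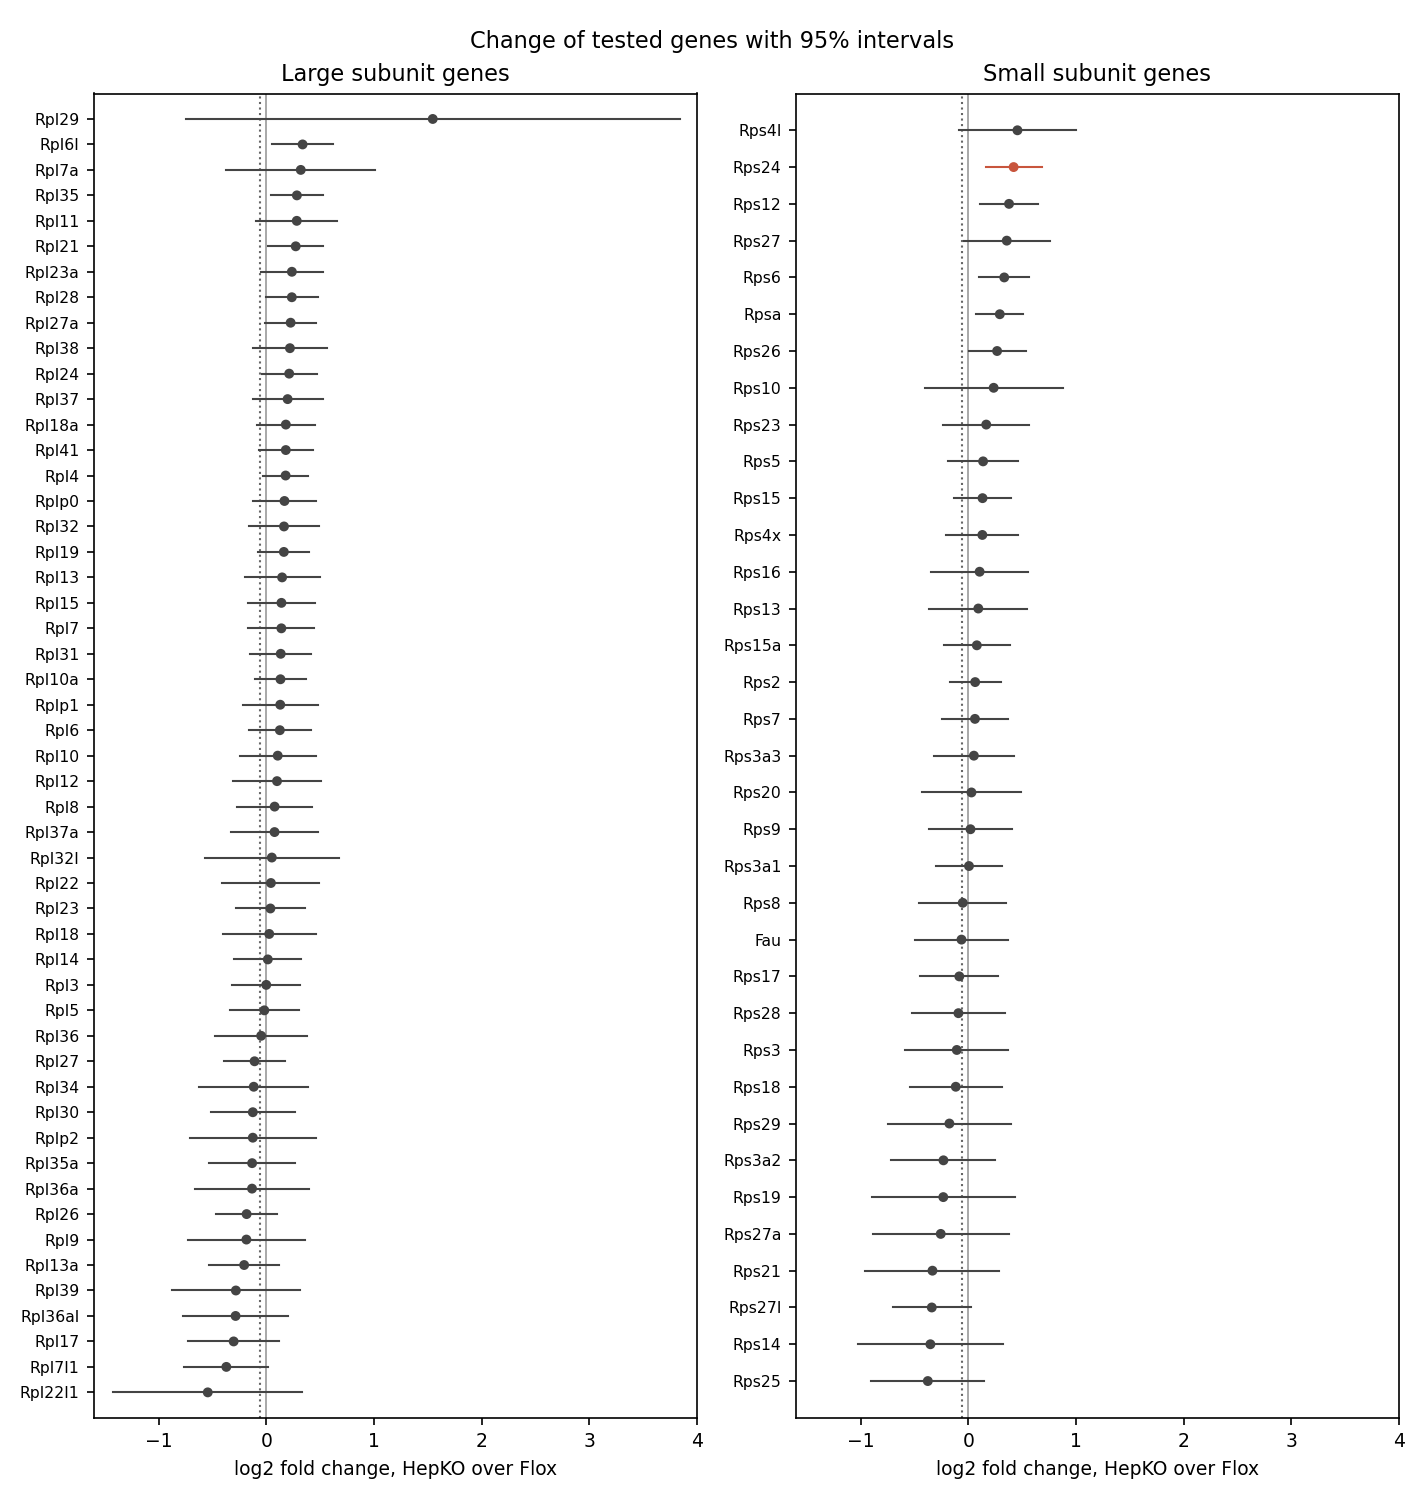
Log2 fold change of HepKO over Flox on log2(FPKM + 1) for the tested large subunit genes (left) and 35 small subunit genes (right), points with 95% intervals; the dotted line is the median of all tested genes (-0.06) and red marks the called gene. Rps24 is the only gene past the threshold (0.42), and Rpl29 has by far the widest interval (-0.75 to 3.84).

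The direction of the small differences leaned upward without reaching calls. The median log2 fold change was 0.08 over the 87 genes, 0.10 for the large and 0.06 for the small subunit, against -0.06 for all tested genes. It was above 0 for 56 of the 87 genes. Under the 4 rescalings tried, the median stayed above 0 for the large subunit (0.05 to 0.17) and for the small subunit (0.004 to 0.11), and without HepKO replicate 3 it was 0.01 and -0.06. The fold of the means lay within 1.25 either way for 75 of the 87 tested genes. In 16 of the 87 (18.4%), 10 large and 6 small subunit genes, every HepKO library lay above every Flox library, near the 17.2% of all tested genes. Only Rps27l had every HepKO library below every Flox library, 1.15% of the group against 25.2% of all tested genes.

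Rpl29 was the 1 gene with a fold of 1.5 or more, and it rests on a single library. Its level was 91.9, 6.34 and 98.5 FPKM in Flox and 135, 127 and 95.4 FPKM in HepKO (log2 fold change 1.55, 95% interval -0.75 to 3.84, limma adjusted p = 0.29). Flox replicate 2 was more than 10-fold under the other Flox libraries, whose values overlap those of HepKO. Rpl7a was uneven within a group too, at 46.3, 82.9 and 104 FPKM in Flox and 79.8, 92.5 and 106 FPKM in HepKO. Rps10 had 58.5, 33.1 and 37.7 FPKM in Flox and 47.0, 66.7 and 38.5 FPKM in HepKO. These 3 genes were named after their values were seen.

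By place in the ribosome, only the small subunit genes outside the head, which include Rps24, had a called member among the groups below. In the stalk, Rplp0 was at 404, 340 and 362 FPKM in Flox and 363, 449 and 433 FPKM in HepKO, and Rplp1 at 711, 643 and 759 FPKM and 636, 832 and 856 FPKM. Rplp2, the partner of Rplp1, was at 85.1, 71.4 and 84.0 FPKM in Flox and 49.0, 83.5 and 95.2 FPKM in HepKO. All 3 stalk genes overlapped between the groups, with log2 fold changes of 0.17, 0.13 and -0.13 and none called. Rplp1 was far above Rplp2 in every library, although the proteins enter the stalk as pairs.

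Rpl5 and Rpl11, which bind the 5S ribosomal RNA and, when free of the ribosome, the p53 regulator Mdm2, were at similar levels and neither was called. Rpl5 was at 107, 96.4 and 108 FPKM in Flox and 85.7, 110 and 113 FPKM in HepKO (log2 fold change -0.02, limma adjusted p = 0.94). Rpl11 was at 90.5, 85.9 and 90.7 FPKM in Flox and 85.4, 118 and 126 FPKM in HepKO (0.28, adjusted p = 0.25). For both genes HepKO replicate 1 was the lowest of the 6 libraries and the other HepKO livers were the highest. Without it Rpl11 had a log2 fold change of 0.45 and passed the threshold (adjusted p = 0.032).

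Around the exit tunnel, 10 genes had a median log2 fold change of 0.15, and 4 of them had no overlap with HepKO higher, where all tested genes had 17.2%. The 14 genes of the head of the small subunit had a median of -0.09, and 1 of them, Rps12, had no overlap. The difference between these small groups was not tested. The 22 other small subunit genes, with the called Rps24 among them, had a median of 0.07. Among genes made as a fusion with a ubiquitin-like protein, Fau was at 271, 234 and 246 FPKM in Flox and 181, 270 and 280 FPKM in HepKO (log2 fold change -0.06, limma adjusted p = 0.84). Rps27a, fused to ubiquitin, was at 143, 137 and 143 FPKM in Flox and 75.5, 136 and 160 FPKM in HepKO (-0.26, adjusted p = 0.53). In both, HepKO replicate 1 lay far under the rest, which overlapped. Rack1, a scaffold on the head of the small subunit whose symbol falls outside the naming rule, had a log2 fold change of -0.03 (limma adjusted p = 0.90).

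Some ribosomal proteins have a paralog that can take their place, and the ratio of paralog to main gene within a library does not depend on how libraries are scaled. Rps27l, a p53-inducible paralog, was at 115, 115 and 120 FPKM in Flox and 74.3, 94.9 and 110 FPKM in HepKO (log2 fold change -0.34, limma adjusted p = 0.16). Rps27 was at 145, 128 and 131 FPKM in Flox and 139, 172 and 215 FPKM in HepKO (0.36, adjusted p = 0.18). The ratio of Rps27l to Rps27 was 0.790, 0.899 and 0.913 in Flox and 0.535, 0.550 and 0.510 in HepKO, 0.867 ± 0.0673 against 0.532 ± 0.0201 (SD, n = 3). The ratios of the groups did not overlap, their gap exceeded the spread within either group, and HepKO replicate 1 was in the middle of its group. The log2 difference was -0.70 (-0.71 without HepKO replicate 1), with an exact two-sided permutation p = 0.10, the smallest that 3 against 3 libraries allow, and 0.167 adjusted over the 5 pairs tested.

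The other pairs moved less or overlapped. Rpl7l1, a relative of Rpl7, stood to Rpl7 as 0.218, 0.230 and 0.218 in Flox and 0.138, 0.141 and 0.188 in HepKO (log2 difference -0.53, exact permutation p = 0.10, adjusted 0.167). Rpl7l1 itself was at 23.9, 30.2 and 29.0 FPKM in Flox and 17.2, 21.6 and 25.1 FPKM in HepKO, with overlap (log2 fold change -0.37, limma adjusted p = 0.15), and Rpl7 had a log2 fold change of 0.14 (adjusted p = 0.48). Rpl36al, an autosomal copy of the X-linked Rpl36a, exceeded its main gene in every library, with ratios of 2.72, 2.88 and 2.91 in Flox and 2.67, 2.57 and 2.42 in HepKO (log2 difference -0.15, exact permutation p = 0.10, adjusted 0.167). Rows named as pseudogenes of Rpl36a summed to a mean of 104 FPKM, against 41.6 FPKM for Rpl36a itself. These ratios therefore depend on how reads were assigned between those rows. For Rpl36al and Rpl36a the log2 fold changes were -0.29 and -0.13 (adjusted p 0.36 and 0.70). Rpl22l1 over Rpl22 was 0.860, 0.987 and 0.711 in Flox and 0.351, 0.642 and 0.737 in HepKO, which overlapped (log2 difference -0.62, exact permutation p = 0.20, adjusted 0.25). The log2 difference for that pair was -0.30 without HepKO replicate 1. Rpl22l1 had 30.1, 26.3 and 24.6 FPKM in Flox and 9.74, 19.2 and 31.2 FPKM in HepKO (log2 fold change -0.55, limma adjusted p = 0.33), and Rpl22 a log2 fold change of 0.04 (adjusted p = 0.90). Rps4l over Rps4x was 0.0877, 0.0567 and 0.0980 in Flox and 0.123, 0.102 and 0.0805 in HepKO, also overlapping (log2 difference 0.35, exact permutation p = 0.40). Rps4l itself had a log2 fold change of 0.46 (limma adjusted p = 0.21) and Rps4x 0.13 (adjusted p = 0.55). GENCODE annotates Rps4l as a transcribed processed pseudogene, so this pair may not compare 2 proteins. Rpl3l was too low for a ratio to Rpl3, which had a log2 fold change of 0.00 (adjusted p = 0.99).

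**Figure D3:**
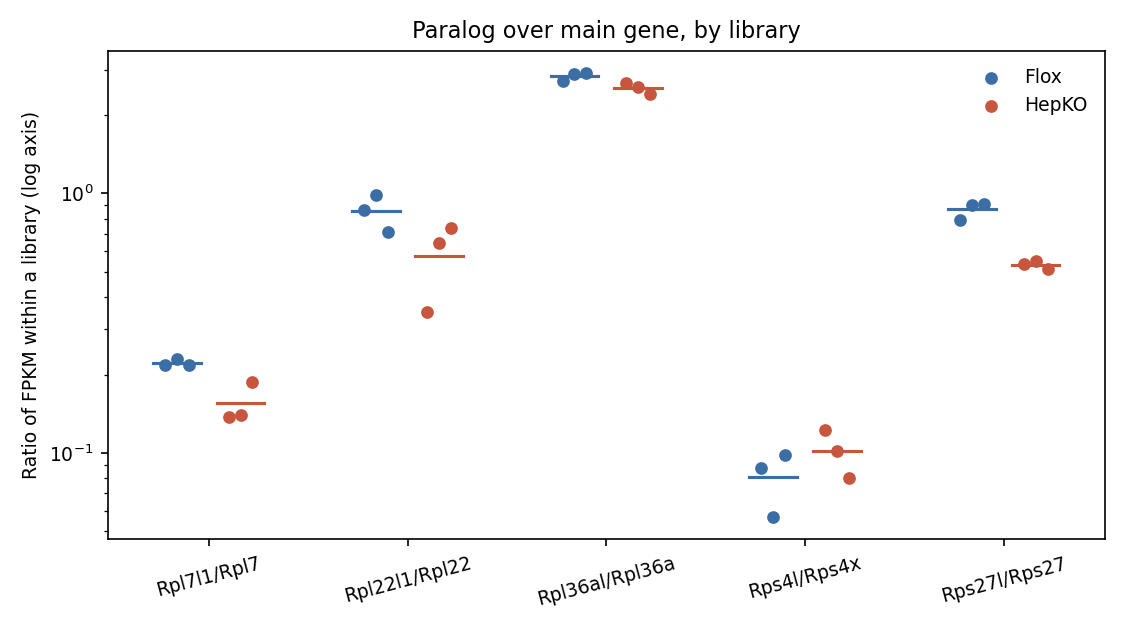
Ratio of paralog to main gene FPKM within each library on a log axis, with points for the 3 Flox (blue) and 3 HepKO (red) libraries and lines at group means. For Rps27l over Rps27 the Flox points lie at 0.790 to 0.913 and the HepKO points at 0.510 to 0.550, without overlap.

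In these genes the HepKO libraries differed among themselves more than the Flox libraries did. The median coefficient of variation over the 88 genes was 5.33% in the Flox libraries and 16.3% in the HepKO libraries. It was not taken over all tested genes, so the gap cannot be called particular to these genes. HepKO replicate 1 was below both other HepKO libraries for 74 of the 88 genes. That was 85.1% of the 87 tested, against 47.7% of all tested genes. This library was the lowest of all 6 for 53 of the 88 genes, 60.9% of the 87 tested, against 31.0% of all tested genes. For the nuclear genes of the respiratory chain, described below, those shares were 87.7% and 86.4%. The median log2 ratio of HepKO replicate 1 to the mean of the other HepKO libraries was -0.38 over the group, -0.37 for the large and -0.44 for the small subunit, against -0.08 for all tested genes. For genes of the head of the small subunit it was -0.54 and for those of the exit tunnel -0.28.

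The gap was uneven across genes. Relative to the mean of the other HepKO livers, 11 genes were at 60% or less in HepKO replicate 1. Rpl22l1 was at 38.6%, Rps14 at 50.4%, Rps27a at 51.0%, Rps19 at 51.3% and Rps21 at 54.3%. Rplp2 was at 54.9%, Rpl39 at 56.0%, Rpl36a at 56.9%, Rpl9 at 57.7%, Rps29 at 57.8% and Rpl34 at 59.4%. Rps14, a protein of the platform of the small subunit, shows the size of the gap, with 137, 119 and 151 FPKM in Flox and 67.1, 117 and 149 FPKM in HepKO. At the other end, 17 genes were at 90% or more, among them Rpl4 (98.8%), Rpsa (96.1%), Rps6 (91.0%), Rpl35 (102%), Rps24 (102%) and Rps26 (119%). The 17 include Rpl3l, too low to test, and Rpl6l, Rpl32l, Rps4l, Rps3a2 and Rps3a3, which GENCODE does not annotate as protein coding. Rps26 was at 105, 111 and 115 FPKM in Flox and 149, 129 and 122 FPKM in HepKO, with no overlap (log2 fold change 0.27, limma adjusted p = 0.14). The genes of both ends were named after their values were seen, other than those the naming rule gives.

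Across the 82 genes with a coding transcript, the log2 ratio of HepKO replicate 1 to the other HepKO libraries had a Spearman rho of 0.31 with transcript length and 0.15 with GC content, and across 10739 tested genes the rho with length was 0.18. These correlations are across genes, which share the same 3 libraries. Among 2517 other genes no longer than the longest of these transcripts (3706 bases) and with at least 10 FPKM, the median ratio was -0.14. Their median log2 fold change between genotypes was -0.17. That length limit lies above the median of all tested genes (2605 bases), so this set is not matched to the members in length.

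**Figure D4:**
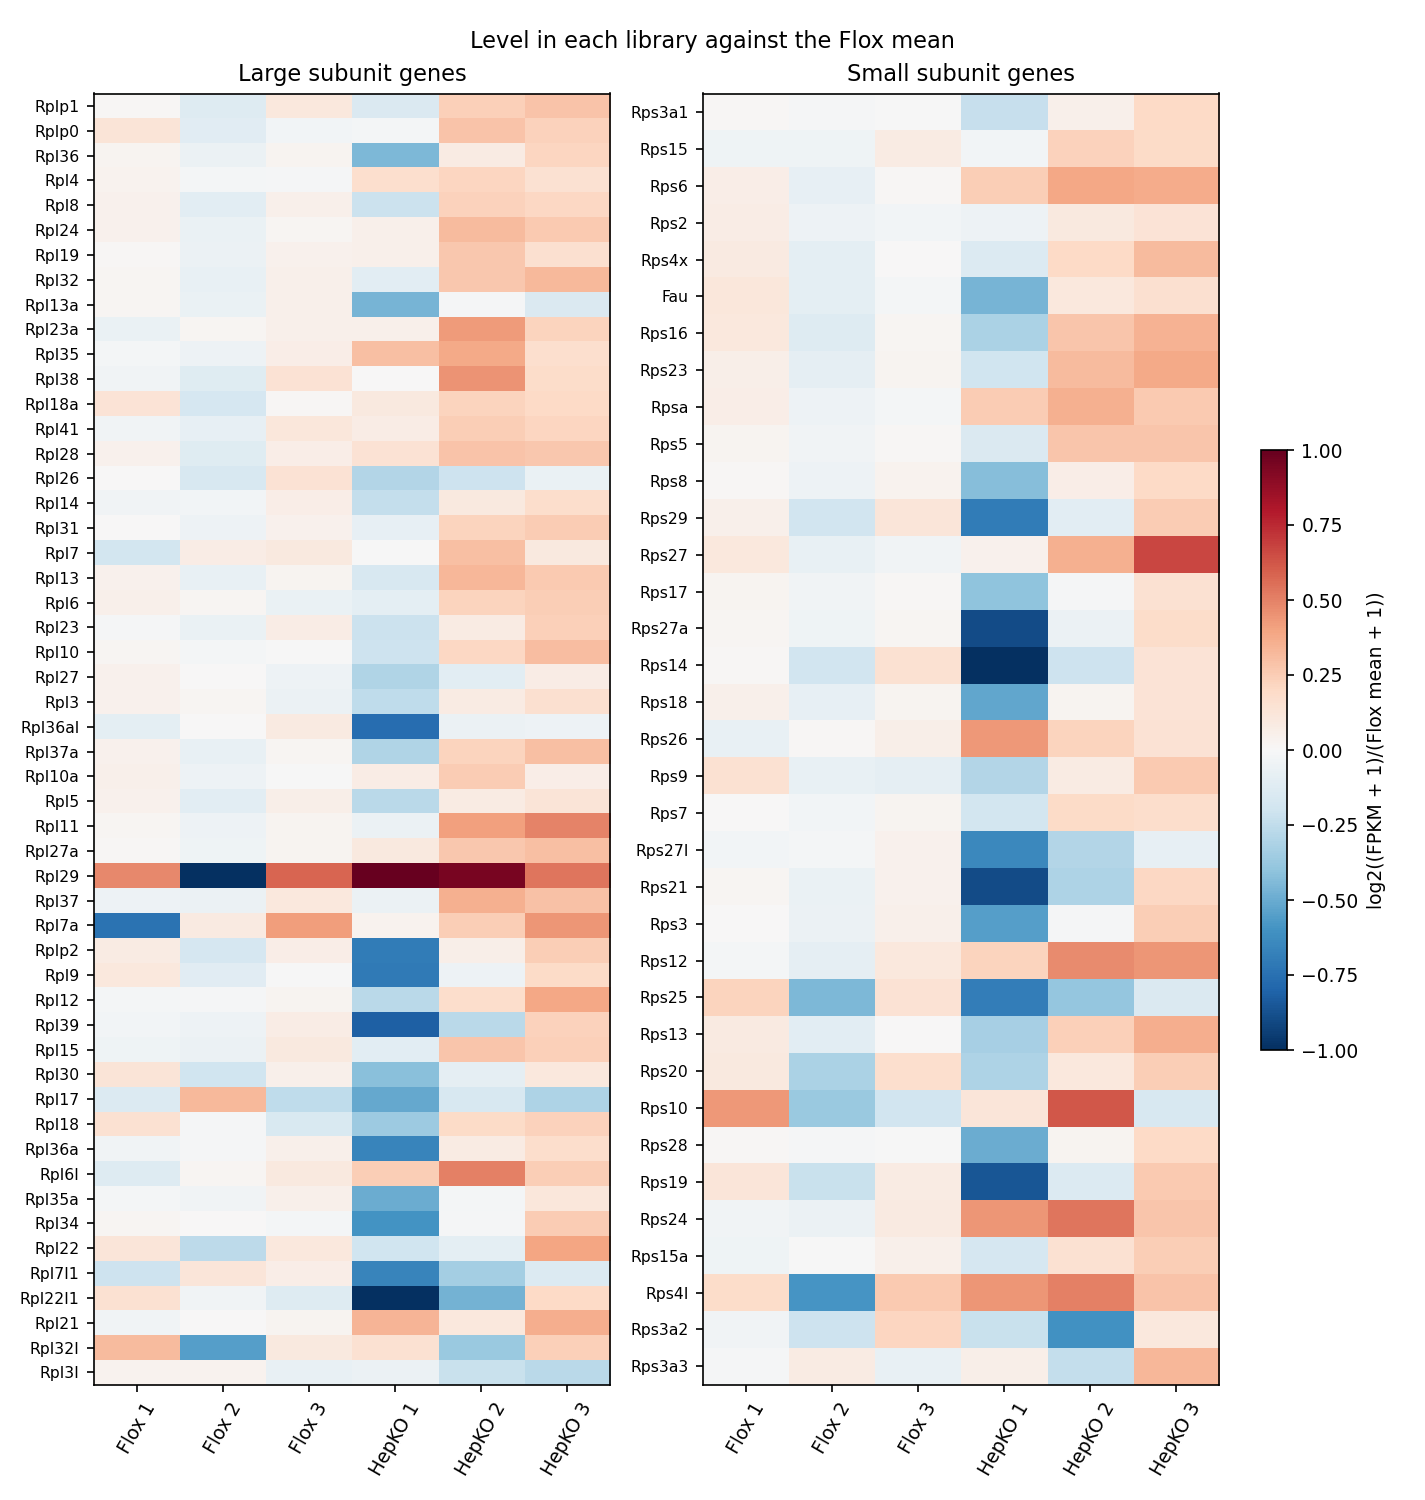
Log2 ratio of FPKM + 1 in each library to the Flox mean for the large subunit genes (left) and 35 small subunit genes (right), in order of mean level, with colours capped at 1 either way. The HepKO 1 column is blue for most genes and the HepKO 2 and HepKO 3 columns are red for most, while Rps24, Rps6, Rpsa and Rps26 are red in all 3 HepKO libraries.

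Without HepKO replicate 1 the picture shifted upward. In 54 of the 87 tested genes (62.1%), both other HepKO libraries lay above every Flox library, 34 of 51 large subunit genes and 20 of 36 small subunit genes, against 22.6% of all tested genes. In the lower direction it was only Rps27l (1.15%), against 27.9% of all tested genes. The comparison without this library was chosen after its values were seen, and leaving out any of the other 5 libraries gave 16 to 21 genes without overlap on the higher side (18.4% to 24.1%) and 2 to 10 on the lower (2.30% to 11.5%). Over all tested genes those shares were 19.7% to 21.3% and 27.8% to 33.3%, so the higher side was near the background there. The median log2 fold change was 0.19 without it, 0.22 for the large and 0.18 for the small subunit, against -0.04 for all genes. It was above 0 for 73 of the 87 genes (83.9%), against 46.1% of all tested genes. An unadjusted p under 0.05 was found for 28 of the 87, near the share of all tested genes (30.8%). In that fit 2 of the 87 genes were called, against 12.7% of all tested genes: Rpl11 and Rps12 (limma adjusted p 0.032 and 0.041), and Rps24 was not (0.085).

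**Figure D5:**
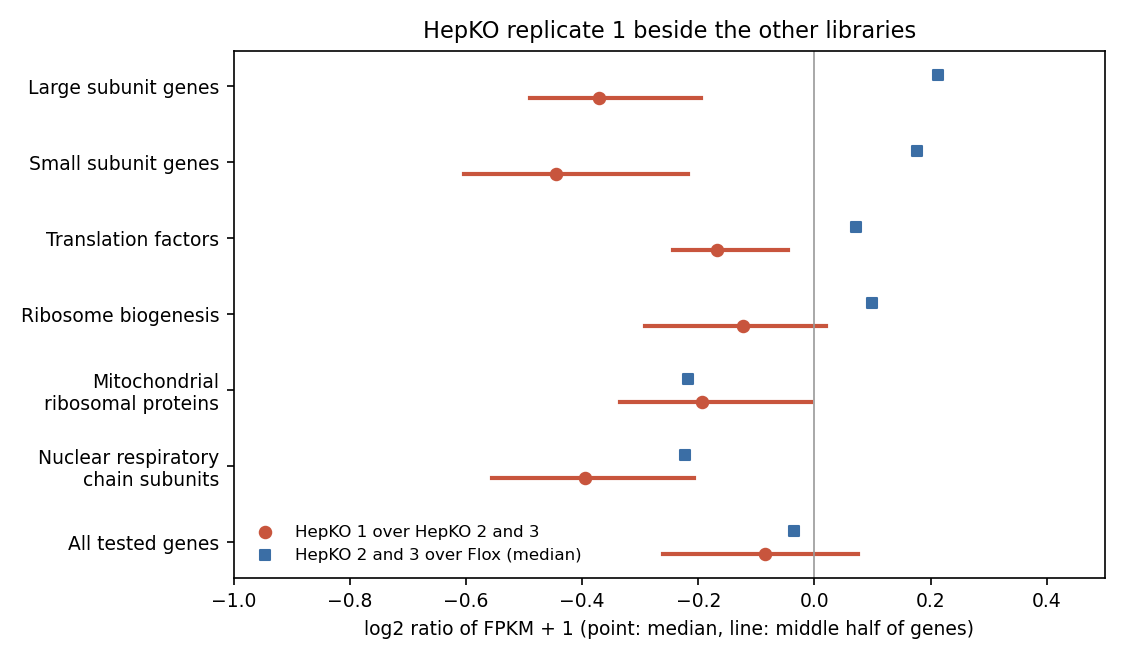
Median log2 ratio of FPKM + 1 for gene groups: HepKO 1 over the mean of HepKO 2 and 3 (red circles, lines spanning the middle 50% of genes) and HepKO 2 and 3 over Flox (blue squares). Among the 7 groups plotted, the HepKO 1 medians of the large and small subunit genes and of the nuclear respiratory chain lie at -0.37, -0.44 and -0.40, and the medians of HepKO 2 and 3 over Flox of the subunit genes at 0.21 and 0.18.

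Other genes of the translation machinery are set here beside the shares of all tested genes, 9.33% called higher and 11.0% called lower. Of 35 translation factor and other TOP-type genes 2 were called higher (5.71%) and 0 lower (median log2 fold change 0.02), Hnrnpa1 (27.3 to 51.0 FPKM, adjusted p = 0.0034) and Pabpc1, the poly(A)-binding protein (49.7 to 67.7 FPKM, 0.032). Of 42 ribosome biogenesis genes 3 were called higher (7.14%) and 0 lower (median 0.05). Both shares of higher calls were under that background. They were Myc, a transcription factor that drives ribosome production, at 8.09, 4.38 and 4.04 FPKM in Flox and 42.7, 39.1 and 33.4 FPKM in HepKO (log2 fold change 2.64, limma adjusted p = 0.0012), Nle1 (0.73, adjusted p = 0.027) and Ncl, which encodes nucleolin (0.37, 0.038). Myc did not overlap between the groups, and HepKO replicate 1 was its highest library. In the mTOR and S6 kinase list, 4 of 22 genes were called higher (18.2%) and 6 lower (27.3%), with a median of -0.06. The largest changes were in the mTOR inhibitor Ddit4 (log2 fold change 2.28, adjusted p = 0.0026), the mTOR-binding Deptor (-1.13, 0.0011) and the stress-induced Sesn2 (0.92, 0.021). Rps6kb1, an S6 kinase named here after its value was seen, fell from 4.18 to 2.77 FPKM (-0.46, 0.037), while its substrate Rps6 had the values given above. The calls of Hnrnpa1, Myc, Ddit4 and Deptor were kept under every alternative. Those of Pabpc1, Nle1, Ncl, Sesn2 and Rps6kb1 were lost with at least 1 library left out (adjusted p up to 0.106, 0.083, 0.115, 0.065 and 0.112). The Ncl call was lost whichever library was left out. With a common sum of all genes both Ncl and Pabpc1 lost their call (limma adjusted p 0.101 and 0.057).

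Ribosomal proteins of the mitochondrion, made from another set of nuclear genes, had another pattern. Of 78 tested, 0 were called higher and 14 lower (17.9%) by limma, with a median log2 fold change of -0.25, against 11.0% of all tested genes called lower. Every HepKO library lay below every Flox library for 37 of them (47.4%), against 25.2% of all tested genes and 1 of 87 in the cytosolic set. With 1 library left out the count of lower calls was 0 (without Flox replicate 2 or 3) to 12 (without Flox replicate 1), while the median stayed at -0.28 to -0.22. Lower calls over all tested genes dropped as well, from 1397 to 635 and 683 without Flox replicate 2 or 3, and to 1162 without Flox replicate 1. Mrpl36 (-0.82, limma adjusted p = 0.021), Mrpl49 (-0.66, 0.020) and Mrps7 (-0.61, 0.016) fell most, and each lost its call without Flox replicate 2 (0.069, 0.065 and 0.054) or Flox replicate 3 (0.069, 0.064 and 0.060). Of 81 nuclear genes for the respiratory chain 0 were called higher and 9 lower (median -0.34), a share of lower calls (11.1%) near the background. For 48 of the 81 (59.3%), though, every HepKO library lay below every Flox library, against 25.2% of all tested genes. The largest falls were in Cox6a2 (-1.40, adjusted p = 0.028), Atp5g1 (-0.81, 0.026) and Ndufs7 (-0.71, 0.033). All 3 lost their call with no filter on low genes (adjusted p 0.076, 0.059 and 0.072) and with any of the Flox libraries left out (up to 0.087, 0.081 and 0.077). Cox6a2 also lost it without HepKO replicate 1 (limma adjusted p = 0.067) and Atp5g1 without HepKO replicate 2 (0.081). Ndufs7 lost it whichever HepKO library was left out (0.069, 0.063 and 0.052). With pseudocounts of 0.1 and 0.01 Cox6a2 moved to -2.71 (0.098) and -3.85 (0.179), and it was listed at 0 in 1 HepKO library. The count of lower calls in the list was 0 without Flox replicate 2 and 12 without HepKO replicate 3, with medians of -0.41 to -0.23. Over all tested genes those 2 fits gave 635 and 1303 lower calls. In HepKO replicate 1 the median ratio to the other HepKO livers was -0.17 for translation factors, -0.12 for biogenesis genes, -0.19 for mitochondrial ribosomal proteins and -0.40 for the nuclear respiratory chain genes. The difference between the cytosolic and mitochondrial sets was not tested, and the lists were chosen with earlier results of these data known.

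Copies of these genes limit how well some levels are known. The table holds 219 rows named as pseudogenes of ribosomal proteins, and 57 of the 88 genes have at least 1. Together those rows summed to 24.8% to 26.7% of the sum of the 88 genes in each library. For 11 genes the pseudogene rows exceeded the gene. Rps12-ps3 averaged 243 FPKM against 68.4 FPKM for Rps12, Rpl17-ps10 231 FPKM against 50.0 FPKM for Rpl17, Rpl7a-ps11 216 FPKM against 85.2 FPKM for Rpl7a, Rps10-ps2 187 FPKM against 46.9 FPKM for Rps10, and Rpl21-ps15 151 FPKM against 11.8 FPKM for Rpl21. The rest of the 11 are Rpl10, Rpl14, Rpl9, Rpl35a, Rpl36a and Rpl34. Reads of near-identical copies can be assigned to either row, so the levels of all 11 genes are uncertain. Adding each gene's pseudogene rows to it left Rps24 as the 1 called gene (log2 fold change 0.42, limma adjusted p = 0.044) and turned Rps27a to 0.02 (0.95). In GENCODE, 5 of the 88 genes (Rpl6l, Rpl32l, Rps3a2, Rps3a3 and Rps4l) are not annotated as protein coding, and 30 of the 88 overlap another gene at 1 FPKM or more, often a small nucleolar RNA in an intron. Rpl35 overlaps Arpc5l and Rps14 overlaps Ndst1, and the strand setting of the quantification was not given in the sources used here.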

How the data were processed

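Poly(A) RNA of 6 whole-liver libraries was sequenced as paired reads with a dUTP-marked second strand, per the labels' protocols. The authors deposited FPKM per gene and library, with their own p-value and q-value columns, per the file headers. Tools listed in the submitters' processing notes, with no roles, are edgeR, DESeq2, StringTie 1.3.4d, HISAT2 2.0.4 and cutadapt 1.9. The genome build was not given in the sources used here. All 88 identifiers are in GENCODE M21 (GRCm38), 70 with equal coordinates, so coordinates are given as GRCm38. Since FPKM are no counts, count models were not used, and depth is unknown.

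The 12712 genes averaging 0.5 FPKM or more were fitted on log2(FPKM + 1) by limma 3.58.1 (R 4.3.3) with the variance trend, genotype as the only term, two-sided, and Benjamini-Hochberg adjustment at 0.05. The scale understates changes of low genes; folds are ratios of mean FPKM. The fit was tested on simulated data. Paralog ratios were tested by exact permutation (scipy 1.17.1). Tables and plots used Python 3.11.15, pandas 2.3.3 and matplotlib 3.10.9.

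The named genes are Nedd4, paralogs with their main genes, stalk and 5S particle genes, Rpsa, Fau, Rps27a, Rack1, the 5 most abundant genes of each subunit, called members, and up to 3 called genes per comparison list; 2 genes that the rule gives are not reported here. The members and lists were chosen with earlier results of these data known. The alternatives changed the pseudocount, the filter, the scaling, the limma options or the threshold, added a replicate block, or left out 1 library; adding pseudogene rows and counts of non-overlap without each library were chosen after seeing the data.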

Additional observations from a re-analysis of the deposited data

How the results depend on the processing

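The large subunit count of 0 called higher and the small subunit count of 1 depended on scaling and threshold. With the 50 most abundant and the mitochondrial genes left out of a common sum they were 1 and 4, at a threshold of 0.10 they were 2 and 4, and without HepKO replicate 1 they were 1 and 1. Of all tested genes 20.3%, 29.8% and 12.7% were called in those settings, in either direction. The small subunit count was 4 with median-ratio rescaling, 3 with a common sum without mitochondrial genome genes, and 0 with a common sum of all genes, with no filter and at a threshold of 0.01. In the same order, 20.8%, 21.1%, 19.6%, 6.95% and 7.39% of all tested genes were called. Under every alternative 0 members were called lower. Leaving out each library in turn gave 0 to 1 for either subunit, with 10.1% to 17.9% of all tested genes called. The replicate numbers do not pair the libraries (correlations of 0.003, 0.002 and -0.025 between same-numbered libraries); the replicate block left 0 members called (Rps24 adjusted p = 0.102) and 1551 of all genes in place of 2583.

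Log2 fold changes that turned sign belong to genes that were called under no setting run. With median-ratio rescaling Fau was at 0.000756, Rack1 at 0.0317, Rpl36 at 0.0147 and Rpl5 at 0.0437. With a common sum of all genes Rpl22 was at -0.0162 and Rps3a1 at -0.0529. With a common sum without mitochondrial genome genes Rps3a1 was at -0.00239. With that sum less the 50 most abundant genes too Rack1 was at 0.0285, Rpl36 at 0.0114 and Rpl5 at 0.0404. With pseudogene rows added Rps27a was at 0.0192. With each library left out in turn, Fau ran from -0.177 to 0.136, Rack1 from -0.119 to 0.0782, Rpl22 from -0.139 to 0.157, Rpl36 from -0.181 to 0.150, Rpl36a from -0.291 to 0.129, Rpl5 from -0.0937 to 0.105, Rpl8 from -0.0024 to 0.220, Rplp2 from -0.315 to 0.156, Rps27a from -0.475 to 0.0630 and Rps3a1 from -0.0887 to 0.124. The cause was not tested. Depth is unknown, so no limit from it can be given.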
